A study of Mus musculus with 5 samples.

Results

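The sympathetic neuron transcription factor network was represented by 8 genes, *Phox2a*, *Hand1*, *Hand2*, *Gata2*, *Gata3*, *Isl1*, *Insm1*, and *Sox11*. They were found by matching their symbols to the gene identifiers of the count table, which holds 20224 genes. All 8 were in the table, and all 8 passed the filter on low counts that kept 15032 genes for testing. The libraries were bulk RNA-seq of mouse E14.5 sympathetic neurons from non-diabetic pregnancies, with 2 libraries of controls, numbered 5 and 6, and 3 of *Hif1aCKO*, numbered 3, 4, and 5. Each library came from 100 cells of the sympathetic chain, sorted as positive for the *Prph*-eGFP transgene and for the tdTomatoAi14 reporter. *Hif1aCKO* cells carried *Hif1a* loxP/loxP with *Isl1*-Cre, and reporter controls carried *Hif1a* loxP/+ with *Isl1*-Cre, so controls were heterozygous for the deletion. The design text given with the samples describes controls without *Isl1*-Cre, but tdTomato from this reporter requires Cre, and the methods give Cre in both reporter genotypes.

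The *Isl1*-Cre allele is a knock-in at *Isl1* itself, one of the 8 genes, and deletes *Hif1a* in any cell that has expressed *Isl1*. The counts do not separate the *Isl1* alleles. Embryos were littermates of both sexes on a mixed background, and it is not stated whether a library pooled several embryos. The p-values therefore measure the spread between these libraries.

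Sympathetic neurons arise from neural crest cells that switch on a set of transcription factors after exposure to bone morphogenetic proteins from the dorsal aorta. Among them is the paired homeodomain factor *Phox2a*. The basic helix-loop-helix factors *Hand1* and *Hand2*, the zinc finger factors *Gata2* and *Gata3*, the LIM homeodomain factor *Isl1*, and the zinc finger factor *Insm1* act with it, and these factors regulate one another rather than forming a strict line. Together they maintain survival, division of neuroblasts, and expression of the noradrenaline synthesis genes *Th* and *Dbh*. *Sox11*, an SRY-box factor, supports proliferation of sympathetic neuroblasts. HIF-1α, the product of *Hif1a*, is the oxygen-regulated subunit of the HIF-1 transcription factor.

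The libraries held between 8254211 and 9700887 counts, and each of the 8 genes had counts in every library. *Hif1a* counts do not show the deletion, which removes a single exon, because the table holds 1 count per gene. Normalized *Hif1a* counts were 2086.3 and 1584.2 in the control libraries and 2747.0, 1757.5, and 2134.8 in the *Hif1aCKO* libraries, and the groups overlapped. Markers of the sorted cell type were present, with *Dbh* at 6252.7 and 6713.4 normalized counts in controls and 4922.6 to 5667.0 in *Hif1aCKO*.

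The 8 genes spanned a wide range of levels. Compared per length, as RPKM, the reads per kilobase of exon scaled by the normalized library size, *Gata3* was highest, with a mean of 322 over the 5 libraries (range 278.5 to 355.2), followed by *Isl1* at 299 (225.2 to 404.8). The 2 ranges overlapped, and *Gata3* was above *Isl1* in 3 of 5 libraries. In the control libraries the mean RPKM of *Gata3* was 0.898 times that of *Isl1*, and in the *Hif1aCKO* libraries it was 1.27 times. *Hand1* at 160 RPKM (139.5 to 182.4) and *Sox11* at 154 (97.5 to 187.7) were also not separated, with *Hand1* higher in 3 of 5 libraries. *Hand2* followed at 75.4 RPKM (53.0 to 96.0). *Gata2* at 25.2 RPKM (14.9 to 33.8) and *Phox2a* at 20.1 (15.5 to 28.3) overlapped, with *Gata2* higher in 4 of 5 libraries. *Insm1* was lowest at 6.46 RPKM (3.42 to 7.88), below *Phox2a* in 5 of 5 libraries. Between *Isl1* and *Hand1*, *Sox11* and *Hand2*, and *Hand2* and *Gata2*, the ranges did not overlap.

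**Figure D1:**
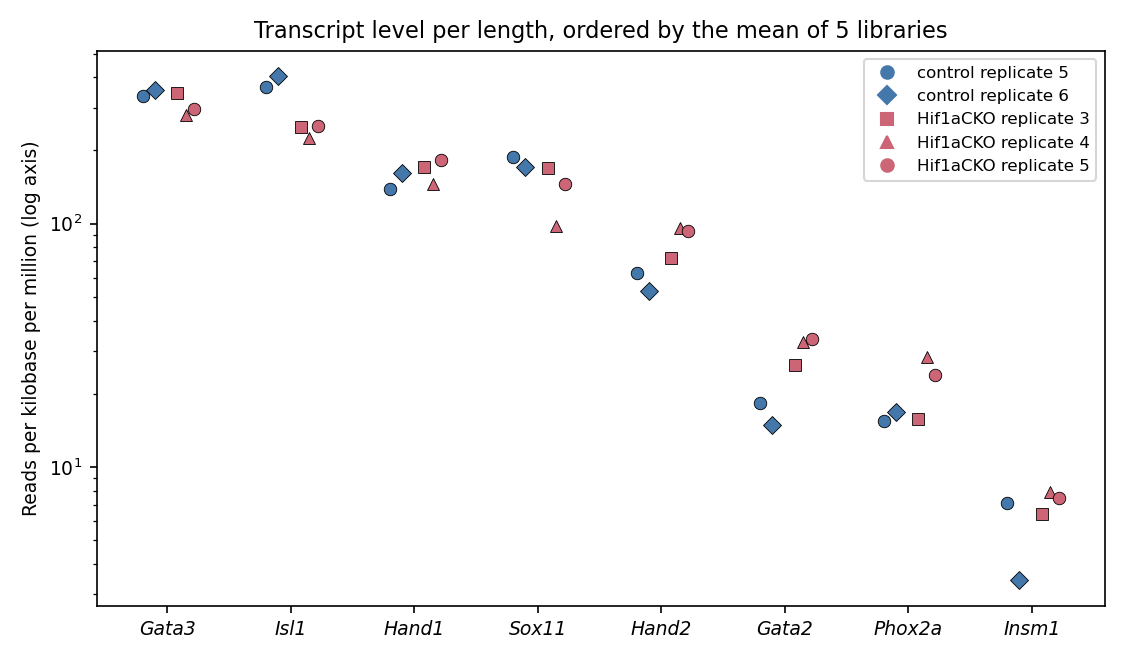
RPKM of each gene in each library on a log axis, with genes ordered by their mean over 5 libraries and symbols marking the library. *Gata3* and *Isl1* share the top of the order, and *Insm1* lies at the bottom, below 8 RPKM in each library.

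Promoter sequence is shown for the 4 genes whose *Hif1aCKO* and control libraries did not overlap in the comparison given below, 2 above and 2 below. Of all genes tested, 12.9% lay above and 12.9% below in the same way, so this choice only sets which sequences are shown. HIF-1 recognizes a short core, searched here as ACGTG or GCGTG on either strand. Each run holds the 250 bases before the RefSeq transcript start (GRCm38.p6), written 5′ to 3′ on the strand of the gene, with the HIF core in capitals. *Gata2* has 2 starts in RefSeq, and both are shown. The runs are *Isl1* (chr13:116309689-116309938, minus strand), *Gata2* first start (chr6:88193641-88193890, plus strand), *Gata2* second start (chr6:88198414-88198663, plus strand), *Hand2* (chr8:57320733-57320982, plus strand), and *Sox11* (chr12:27342719-27342968, minus strand).
Isl1: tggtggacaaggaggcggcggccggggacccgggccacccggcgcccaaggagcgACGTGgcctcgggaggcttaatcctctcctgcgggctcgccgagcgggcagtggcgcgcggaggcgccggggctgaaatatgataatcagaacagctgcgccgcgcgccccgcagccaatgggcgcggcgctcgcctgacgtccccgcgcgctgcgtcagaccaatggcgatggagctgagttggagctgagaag
Gata2 first start: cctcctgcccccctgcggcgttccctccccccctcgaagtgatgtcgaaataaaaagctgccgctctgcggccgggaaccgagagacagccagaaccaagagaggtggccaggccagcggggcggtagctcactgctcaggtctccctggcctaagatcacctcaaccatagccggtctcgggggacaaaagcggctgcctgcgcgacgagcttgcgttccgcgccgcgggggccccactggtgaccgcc
Gata2 second start: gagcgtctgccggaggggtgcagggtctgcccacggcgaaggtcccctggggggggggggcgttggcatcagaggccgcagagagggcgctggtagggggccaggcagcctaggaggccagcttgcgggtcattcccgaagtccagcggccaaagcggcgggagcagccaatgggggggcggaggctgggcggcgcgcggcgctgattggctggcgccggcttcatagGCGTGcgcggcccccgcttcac
Hand2: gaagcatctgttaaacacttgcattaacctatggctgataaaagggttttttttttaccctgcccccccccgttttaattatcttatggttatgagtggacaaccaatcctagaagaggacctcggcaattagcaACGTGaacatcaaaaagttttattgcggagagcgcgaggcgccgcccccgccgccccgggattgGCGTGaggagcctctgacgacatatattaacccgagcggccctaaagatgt
Sox11: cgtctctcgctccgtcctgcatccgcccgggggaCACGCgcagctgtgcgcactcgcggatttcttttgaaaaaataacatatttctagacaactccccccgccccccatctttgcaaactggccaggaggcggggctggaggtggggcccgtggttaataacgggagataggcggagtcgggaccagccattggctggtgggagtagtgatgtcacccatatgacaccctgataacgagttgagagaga

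Of the 8 genes, 6 had a RefSeq promoter here, with 7 promoters between them. *Hand1* and *Insm1* were not in the table. A HIF core was in 4 of the 7 promoters, in those of *Hand2* (115 and 51 bases before the start), *Isl1* (195 bases), *Sox11* (216 bases), and the second start of *Gata2* (22 bases). The *Phox2a*, *Gata3*, and first *Gata2* promoters held none in this window. Of 32817 promoters of all genes, 38.6% held the core. A GATA motif, searched on either strand as AGATAA or AGATAG, or with a first T as TGATAA or TGATAG, was in 3 of the 7 promoters (*Hand2*, *Isl1*, and *Sox11*) and in 26.6% of all promoters. The E-box CANNTG, the motif class bound by *Hand1* and *Hand2*, was in the same 3 promoters and in 66.2% of all promoters. A match gives only the letters in the window, and no binding was measured.

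Across all genes, edgeR called no gene between *Hif1aCKO* and control (0 of 15032, 0.0%). A call needed a Benjamini-Hochberg adjusted p below 0.05 in the quasi-likelihood test, a log2 fold change beyond 0.3 in size, and 50 or more normalized counts on average. None of the 8 genes was called. At an unadjusted p-value under 0.05, 1153 genes (7.67%) passed, 575 higher in *Hif1aCKO* (3.83%) and 578 lower (3.85%). Of the 8 genes, *Gata2* and *Hand2* were on the higher side and *Isl1* on the lower side. DESeq2, with the same thresholds and run as an alternative because the study used it, called 60 of 15478 genes (0.388%), among them *Gata2* and *Isl1*. With DESeq2 and these thresholds, the study itself reported protein-coding genes both higher and lower in *Hif1aCKO* from the same libraries. limma-voom called 0 genes. *Hif1aCKO* libraries lay above those of control, without overlap, in 2 of the 8 genes and in 12.9% of all genes. They lay below in 2 of the 8 and in 12.9% of all genes. Gene positions below are on GRCm38, from the GENCODE M21 annotation.

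*Isl1* (ENSMUSG00000042258, chr13:116298281-116309689, minus strand, 6 exons), a LIM homeodomain factor required for sympathetic neurogenesis, was lower in *Hif1aCKO*. Its normalized counts were 12577.2 and 14019.4 in the control libraries and 8633.6, 7799.9, and 8722.3 in the *Hif1aCKO* libraries. Each *Hif1aCKO* library was below both controls. The means were 13298.3 ± 1020 (SD, n = 2) and 8385.2 ± 508.9 (SD, n = 3). The log2 fold change was -0.67 (SE 0.10, 95% interval -0.90 to -0.43). By edgeR's quasi-likelihood test, the unadjusted p-value was 0.00019 and the adjusted p-value 0.446. By unadjusted p-value *Isl1* was at position 5 of all genes tested. By DESeq2 the adjusted p-value was 0.000214. Both groups carry 1 knock-in *Isl1* allele, and fewer *Isl1*-expressing cells and less RNA per cell cannot be told apart in bulk libraries.

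*Phox2a* (ENSMUSG00000007946, chr7:101818313-101822726, plus strand, 3 exons), a paired homeodomain factor of noradrenergic identity, was present at 276.0 and 299.6 normalized counts in controls and at 280.9, 504.3, and 424.2 in *Hif1aCKO*. *Hif1aCKO* replicate 3 lay between the controls, while replicates 4 and 5 lay above them. The log2 fold change was 0.49 (SE 0.28, 95% interval -0.16 to 1.14), which covers 0, with an adjusted p-value of 0.715 by edgeR.

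*Gata2* (ENSMUSG00000015053, chr6:88193891-88207032, plus strand, 6 exons), a zinc finger factor that maintains noradrenergic differentiation, had 868.7 and 704.9 normalized counts in the control libraries. In the *Hif1aCKO* libraries it had 1244.9, 1545.8, and 1593.8. All 3 *Hif1aCKO* libraries were above both controls. The means were 786.8 ± 115.8 (SD, n = 2) and 1461.5 ± 189.1 (SD, n = 3), a 1.86-fold difference (95% interval 1.38 to 2.50), with a log2 fold change of 0.89 (SE 0.19). The adjusted p-value was 0.586 by edgeR's quasi-likelihood test and 0.00324 by DESeq2. The study had reported elevated *Gata2* in *Hif1aCKO* neurons from the same libraries, so the DESeq2 call is not independent of its result. By quantitative PCR, the study also found significantly higher *Gata2* in *Hif1aCKO* than in control. That RNA came from microdissected sympathetic chains and not from the sorted cells. *Gata2* also gave the largest fold change of the 8 genes in either direction. With any single library removed, its log2 fold change was 0.74 to 1.05.

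*Gata3* (ENSMUSG00000015619, chr2:9857078-9890034, minus strand, 6 exons), the paralog of *Gata2* needed for sympathetic neuron survival, was far more abundant. It had 11641.8 and 12359.1 normalized counts in controls and 11980.0, 9692.2, and 10346.3 in *Hif1aCKO*. The groups overlapped, with a log2 fold change of -0.17 (SE 0.11, 95% interval -0.43 to 0.09) and an adjusted p-value of 0.755 by edgeR. *Gata3* shares 3.90% of its exonic bases with an antisense gene and 1.94% with a gene on the same strand.

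The balance between these paralogs was compared within each library, where scaling of the library cancels. *Gata2* counts were 7.46% and 5.70% of *Gata3* counts in the control libraries. They were 10.4%, 15.9%, and 15.4% in the *Hif1aCKO* libraries, all above both controls. The difference in the log2 ratio was 1.07, or 2.09-fold. An exact permutation test over the 10 possible groupings gave a two-sided p of 0.1, the smallest this design allows, and 0.2 after adjustment for the 2 ratios tested. *Hand2* counts relative to *Hand1* gave a log2 ratio of -0.92 and -1.38 in controls and -1.01, -0.37, and -0.74 in *Hif1aCKO*, which overlapped, with a difference of 0.44 and an exact permutation p of 0.3.

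**Figure D2:**
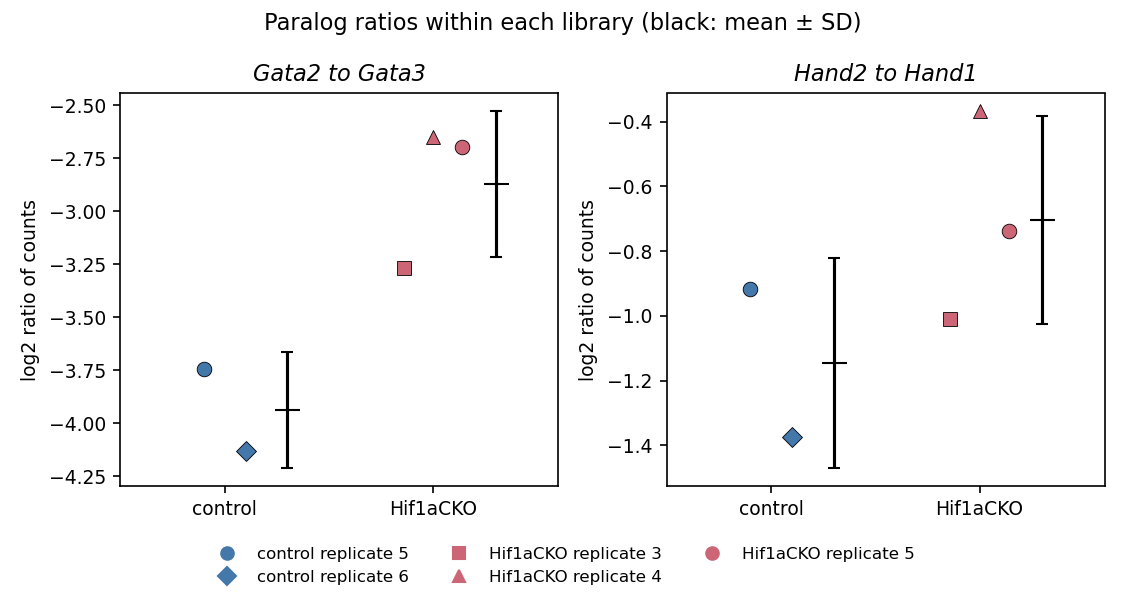
Log2 ratio of *Gata2* to *Gata3* counts and of *Hand2* to *Hand1* counts in each library, with black lines for the mean and SD. The *Gata2* to *Gata3* ratio of the 3 *Hif1aCKO* libraries lies above that of the 2 controls, and the *Hand2* to *Hand1* ratios overlap.

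*Hand2* (ENSMUSG00000038193, chr8:57320983-57324633, plus strand, 2 exons), a basic helix-loop-helix factor that supports noradrenergic differentiation and neuroblast division, had 1291.6 and 1089.8 normalized counts in controls and 1486.1, 1974.2, and 1911.0 in *Hif1aCKO*. All 3 *Hif1aCKO* libraries were above both controls. The means were 1190.7 ± 142.7 (SD, n = 2) and 1790.4 ± 265.4 (SD, n = 3). The log2 fold change was 0.59 (SE 0.18, 95% interval 0.17 to 1.01). The adjusted p-value was 0.599 by edgeR and 0.143 by DESeq2. *Hand2* shares 461 exonic bases (19.6% of its length) with the antisense gene *Hand2os1*. The study counted with default Rsubread parameters, and strand use is not stated. How reads of the shared part were assigned was not examined. *Hand2os1* was far more abundant than *Hand2*, with mean normalized counts of 12379.0 in control and 14401.4 in *Hif1aCKO*. Its log2 fold change was 0.22 (adjusted p-value 0.726 by edgeR).

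*Hand1* (ENSMUSG00000037335, chr11:57828705-57832818, minus strand, 2 exons), the paralog of *Hand2*, had 2437.3 and 2827.1 normalized counts in controls and 2990.4, 2548.4, and 3186.7 in *Hif1aCKO*. The groups overlapped. The log2 fold change was 0.14 (SE 0.15, 95% interval -0.20 to 0.49), with an adjusted p-value of 0.861 by edgeR.

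*Insm1* (ENSMUSG00000068154, chr2:146221921-146225020, plus strand, a single exon), a zinc finger factor of the sympatho-adrenal lineage, was the lowest of the 8 genes. It had 193.7 and 92.8 normalized counts in controls and 173.7, 213.7, and 202.4 in *Hif1aCKO*. The controls differed from each other by more than the *Hif1aCKO* libraries did. The log2 fold change was 0.46 (SE 0.37, 95% interval -0.39 to 1.30), with an adjusted p-value of 0.800 by edgeR. It was 0.016 without control replicate 6 and 1.08 without control replicate 5.

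*Sox11* (ENSMUSG00000063632, chr12:27334264-27342574, minus strand, a single exon) had 13646.9 and 12480.6 normalized counts in controls and 12283.4, 7087.9, and 10555.5 in *Hif1aCKO*. All 3 *Hif1aCKO* libraries were below both controls, but replicate 3 by little. The means were 13063.8 ± 824.7 (SD, n = 2) and 9975.6 ± 2646 (SD, n = 3). The log2 fold change was -0.39 (SE 0.20, 95% interval -0.85 to 0.08), with an adjusted p-value of 0.699 by edgeR and 0.587 by DESeq2. Without *Hif1aCKO* replicate 4 it was -0.20.

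**Figure D3:**
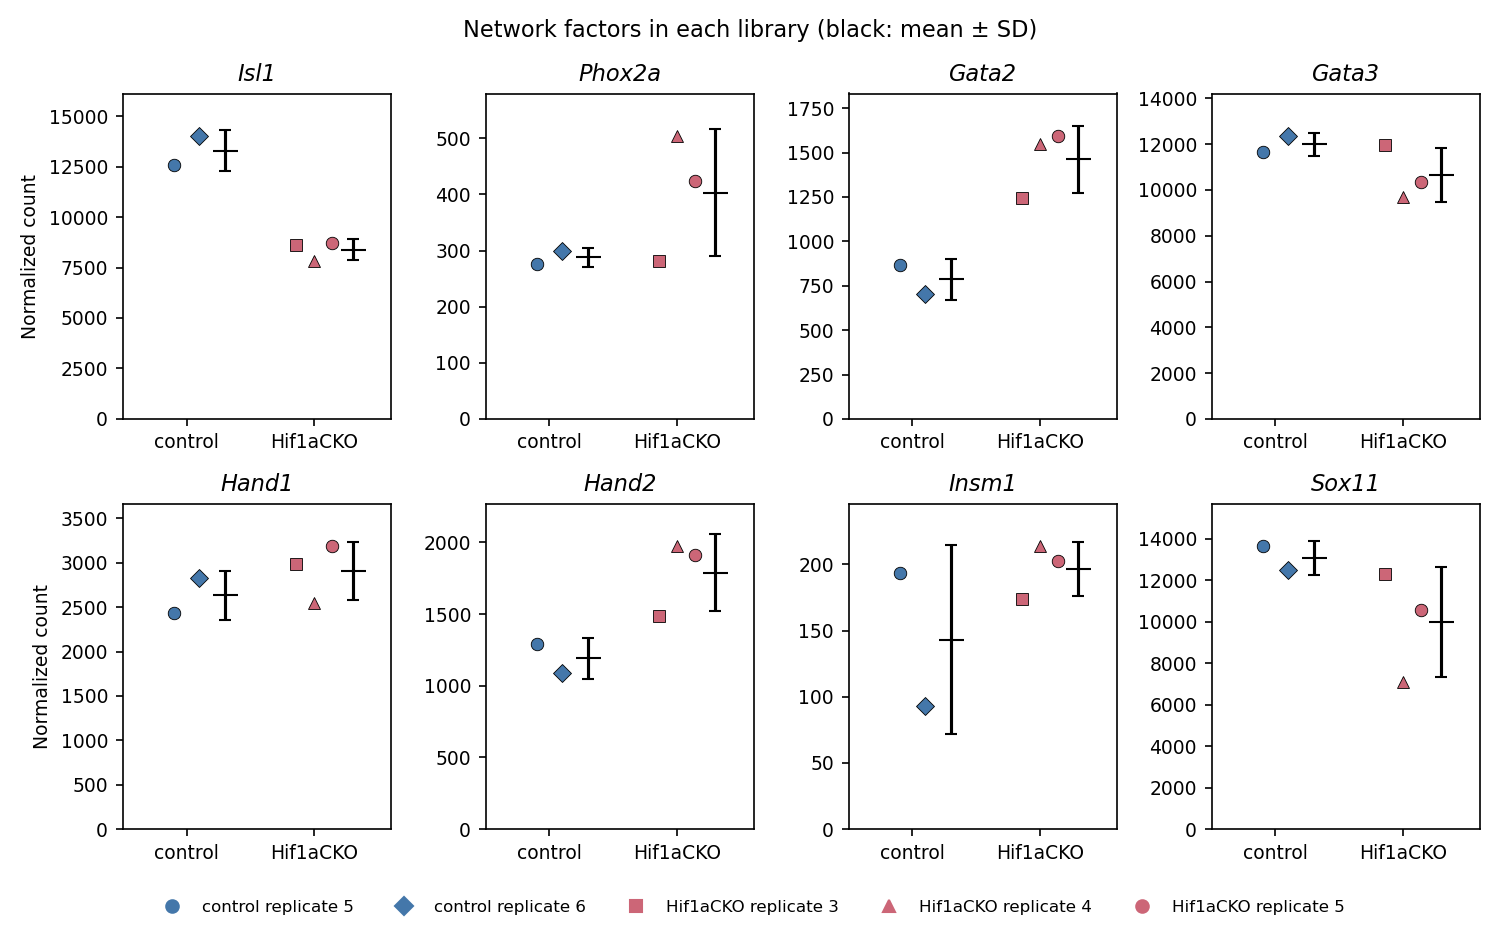
Normalized counts of the 8 genes in the 2 control and 3 *Hif1aCKO* libraries, with black lines for the mean and SD and axes starting at 0. *Isl1*, *Gata2*, *Hand2*, and *Sox11* separate the groups, and the other 4 genes overlap.

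**Figure D4:**
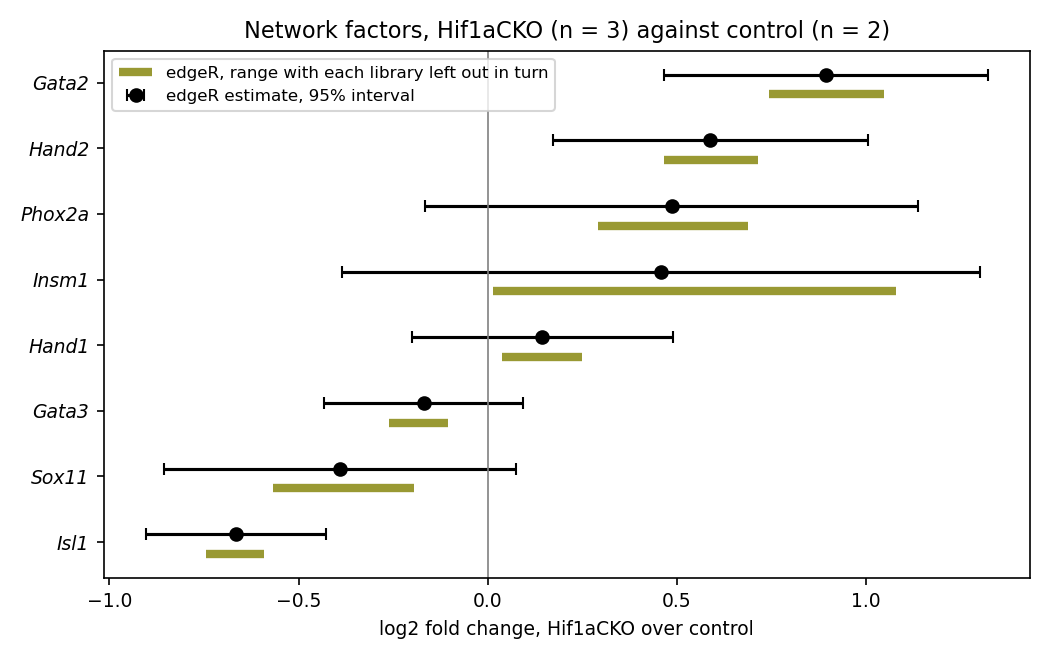
Log2 fold change of each gene in *Hif1aCKO* over control with its 95% interval (black), and the range when each library is left out in turn (olive). The intervals of *Gata2*, *Hand2*, and *Isl1* do not cover 0, and *Insm1* has the widest range, from 0.016 to 1.08.

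The 8 genes did not move together. Their log2 fold changes ranged from -0.67 to 0.89 with a median of 0.30, beside 0.012 over all genes tested. *Isl1*, *Sox11*, and *Gata3* were the 3 with a negative log2 fold change, and *Hand1*, as abundant per length as *Sox11*, was at 0.14. In *Hif1aCKO*, replicate 3 was the library nearest to the control mean for *Phox2a*, *Gata2*, *Gata3*, *Hand2*, *Insm1*, and *Sox11*.

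Genes with the pattern most like each of the 2 genes that DESeq2 called were ranked by the root mean square difference of log2 values over the 5 libraries, among 10838 genes. Such a ranking always returns nearest genes, and the likeness was not tested. Most like *Gata2* were *Esrra* (0.058), *Stab1* (0.068), and *Dennd2a* (0.081), and *Hand2* was at position 63 (0.157). *Esrra* and *Stab1* were low, with control means of 39.4 and 38.9 normalized counts. Their unadjusted p-values by edgeR were 0.087 and 0.089. Most like *Isl1* were *Pfkl* (0.016), a phosphofructokinase subunit of glycolysis, *Tmem177* (0.056), and *Heatr5b* (0.071), and *Gata3* was at position 1227.

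The other factors of the network and its targets were taken from fixed lists, chosen with earlier results of these data known. Of 33 partner and related factors, 26 were tested. At an unadjusted p-value under 0.05 by edgeR, 4 were higher and 2 lower, beside 3.83% and 3.85% of all genes, and none was called by edgeR or DESeq2. The higher ones were *Tcf12*, a partner of Hand factors (log2 fold change 0.52), *Insm2* (0.49), *Zfpm2*, a cofactor of GATA factors (0.62), and *Ldb2*, a LIM-domain-binding cofactor (2.83). *Ldb2* had only 28 and 2 counts in the controls, and 75, 173, and 77 in *Hif1aCKO*. The lower ones were *Sox4* (-0.28), a relative of *Sox11*, and *Lmo1* (-0.44), a LIM-only cofactor. Their adjusted p-values by edgeR ranged from 0.621 to 0.647.

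Of 9 noradrenergic target genes, 5 were lower and none higher at an unadjusted p-value under 0.05 by edgeR, against 3.85% and 3.83% of all genes, and none was called. *Th*, the rate-limiting enzyme of catecholamine synthesis, had 2997.7 and 6985.1 normalized counts in the controls and 1682.3, 1514.8, and 2582.4 in *Hif1aCKO*. The groups did not overlap although the controls differed widely, and the log2 fold change was -1.37 (SE 0.35). *Dbh*, which makes noradrenaline from dopamine, had a log2 fold change of -0.32, and *Slc18a2*, the vesicular monoamine transporter, -0.58. *Maoa*, which breaks down monoamines, was at -0.48, and *Cyb561*, an electron carrier of secretory vesicles, at -0.45. By edgeR their adjusted p-values ranged from 0.586 for *Th* to 0.621. The list's median log2 fold change was -0.32. Of 12 general neuronal genes, the log2 fold change was positive in 6 and negative in 6, with a median of 0.019. At an unadjusted p-value under 0.05 by edgeR, 1 was higher and 3 lower, beside 3.83% and 3.85% of all genes, and none was called by edgeR or DESeq2. The higher one was *Snap25*, a synaptic vesicle fusion protein (0.62), and the lower ones were *Tubb3*, a neuronal tubulin (-0.39), *Gap43*, a growth cone protein (-0.32), and *Stmn2*, a microtubule regulator (-0.30).

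Markers of other cells were counted beside these results. Of 12 cycling-cell genes, 6 were higher and none lower at an unadjusted p-value under 0.05 by edgeR, beside 3.83% and 3.85% of all genes. edgeR called none of them, and DESeq2 called 3, beside 0.388% of all genes. The list was chosen with earlier results of these data known. The study had named *Mki67* and *Ccnb1* as upregulated from the same libraries, so these counts are not independent of its result. Their summed normalized counts were 24286.1 to 28119.8 in control and 31782.9 to 32629.4 in *Hif1aCKO* libraries. The 6 were the mitotic genes *Plk1* (log2 fold change 0.93), *Ccnb1* (0.76), *Bub1* (0.69), and *Cdk1* (0.42), the cyclin gene *Ccna2* (0.48), and the proliferation marker *Mki67* (0.78). *Top2a* (0.25) and the mitotic kinase gene *Aurkb* (0.32) had unadjusted p-values of 0.067 and 0.19 by edgeR, and the groups overlapped for *Aurkb*. By quantitative PCR of microdissected sympathetic chains, the study found significantly higher *Mki67* in *Hif1aCKO* but no effect of *Hif1a* deletion on *Plk1*. That RNA was not from the sorted cells. The DNA replication genes of the list had log2 fold changes near 0, at -0.02 for *Pcna*, -0.11 for *Mcm2*, 0.018 for *Mcm5*, and -0.11 for *Rrm2*, and their groups overlapped. The chromaffin cell list summed to 9206.6 to 11997.4 in control and 3739.9 to 8459.9 in *Hif1aCKO*. Most of this difference was in *Chgb*, a secretory granule protein, with 5514.2 and 8695.5 normalized counts in controls and 776.3, 4732.2, and 1106.3 in *Hif1aCKO*. *Chga* (log2 fold change 0.0077) and *Slc18a1* (0.012) overlapped between groups. *Pnmt*, the adrenaline-making enzyme, had 29.2 and 51.0 normalized counts in controls and 18.2, 3.0, and 10.7 in *Hif1aCKO* (log2 fold change -1.91). *Penk*, which did not pass the filter, had 0 and 57 counts in controls and 2, 0, and 0 in *Hif1aCKO*. *Htr3a*, also filtered out, had 4 and 0 counts in controls and 9, 15, and 0 in *Hif1aCKO*. The Schwann cell precursor list summed to 30.6 to 55.2 in control and 46.9 to 1198.7 in *Hif1aCKO*, with *Fabp7* at 0 in both controls and at 926, 0, and 9 counts in *Hif1aCKO* replicates 3, 4, and 5. The part of these cell types in the differences of the 8 genes was not tested. Without *Hif1aCKO* replicate 3, the log2 fold change was 0.996 for *Gata2*, 0.71 for *Hand2*, and -0.69 for *Isl1*. Motor neuron markers summed to 708.3 to 966.5 in control and 352.8 to 540.0 in *Hif1aCKO*. Of this list, *Mnx1* and *Lhx3* were not in the count table. Most of the sum came from *Slc18a3*, the vesicular acetylcholine transporter (log2 fold change -1.02), while *Lhx4*, *Chat*, and *Slc5a7* overlapped between groups. Sensory neuron markers summed to 59.4 to 92.7 and 113.7 to 155.8, mostly from *Neurod1*, with *Pou4f1* at most 5.21 in any library. Endothelial markers summed to at most 38.0, mesenchymal markers to at most 24.3, and blood cell markers to at most 129.2.

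**Figure D5:**
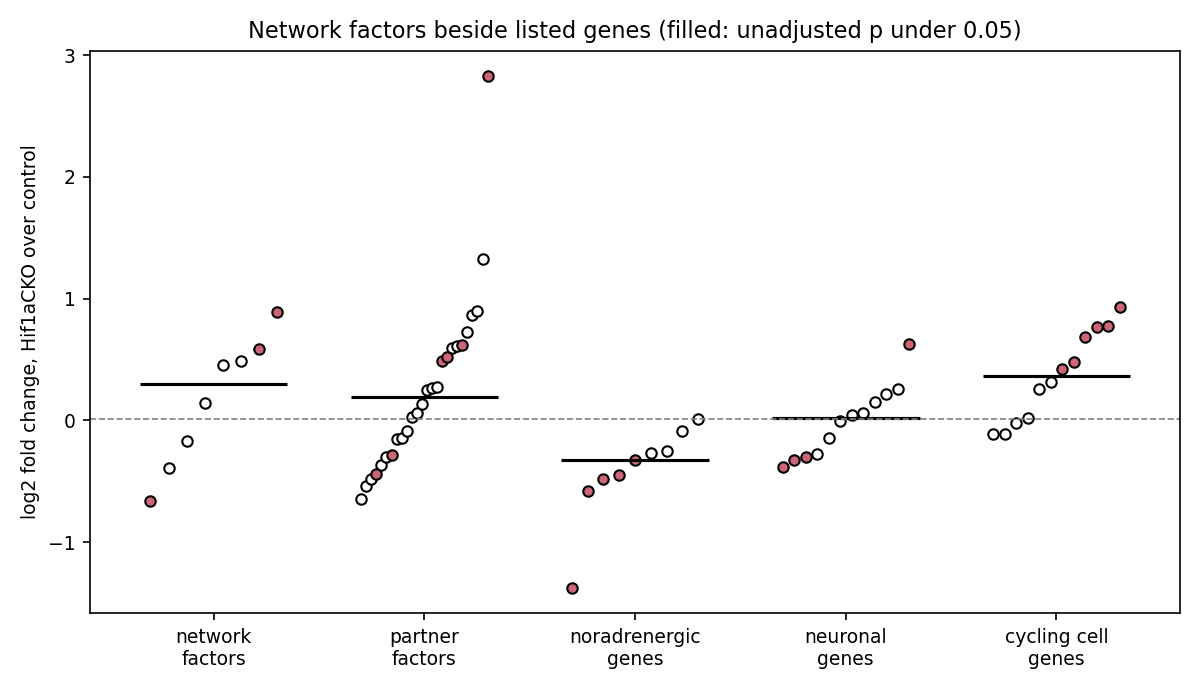
Log2 fold change in *Hif1aCKO* over control of the 8 genes and of 4 lists, each point a gene, filled where the unadjusted p is under 0.05, with black lines for each list's median and a dashed line for the median of all genes. The noradrenergic list lies at or below the dashed line and the cycling-cell list mostly above it.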

How the data were processed

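Cells were sorted, and libraries were made from 100 cells with a low-input kit for bulk RNA-seq. The authors trimmed reads (cutadapt 1.18, Trimmomatic), removed ribosomal reads (Bowtie 1.2.2, SortMeRNA), mapped to GRCm38 with STAR 2.7.0c, and counted reads per gene with Rsubread, leaving out multi-mapping reads. The deposited file holds these raw counts for 20224 genes in 5 libraries, with no normalization, and strand use in counting is not stated. Groups followed the labels.

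Counts were tested with edgeR 4.0.16 in R 4.3.3 (TMM factors, filterByExpr, quasi-likelihood test), with Benjamini-Hochberg adjustment over the 15032 genes kept. The script was tested on simulated data. For normalized counts, each count was divided by the library's sum over the genes kept times its TMM factor, then multiplied by the mean of these sizes. RPKM used exon lengths and positions from GENCODE M21 (GRCm38), and ratios used a pseudocount of 0.5. Totals over all genes in the count table ranged from 8254211 to 9700887, and with 2 against 3 libraries the smallest exact p is 0.1. Alternatives were DESeq2 1.42.0, limma-voom (limma 3.58.1), other normalizations and filters, and leaving out each library. Beside the 8 genes, *Hif1a*, and *Th* and *Dbh*, listed genes with an unadjusted p-value under 0.05 (at most 6 per list, by smallest p) and the 3 genes most like *Gata2* and *Isl1* are named. The genes and lists were chosen with earlier results of these data known. *Hand2os1*, *Fabp7*, and listed markers that were not tested or had a p-value above 0.05 are named outside this rule, after their values were seen. Some factors of the network are not reported here. Protein sequences were not used here.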

Additional observations from a re-analysis of the deposited data

How the results depend on the processing

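The log2 fold changes of the 8 genes were recomputed under 11 alternatives, giving 88 values. None changed sign, and 86 stayed on the same side of the threshold as by edgeR. The other 2 were DESeq2, which called *Gata2* (log2 fold change 0.89, adjusted p-value 0.00324) and *Isl1* (-0.67, adjusted p-value 0.000214), so that 2 of the 8 genes were called. Over all genes, DESeq2 called 60, and leaving out each library in turn gave 0 to 4 called genes, the 4 without control replicate 5, all lower in *Hif1aCKO* and none of them among the 8. RLE and upper-quartile normalization, limma-voom, and other count filters called 0. Leaving out 1 control leaves a lone control library that is assumed to vary like the *Hif1aCKO* libraries. Without control replicate 6 the smallest adjusted p-value was 0.9995. With each library left out, the log2 fold change of *Insm1* ran from 0.016 (without control replicate 6) to 1.08 (without control replicate 5), *Hand1* from 0.039 (without control replicate 5) to 0.25 (without control replicate 6), *Sox11* from -0.57 (without *Hif1aCKO* replicate 3) to -0.20 (without *Hif1aCKO* replicate 4), *Gata3* from -0.26 to -0.11 (same 2 libraries), and *Phox2a* from 0.69 to 0.29 (same 2 libraries). The difference of the *Gata2* to *Gata3* log2 ratio ran from 0.87 to 1.26 and that of *Hand2* to *Hand1* from 0.21 to 0.67. No paired analysis was possible because the labels give no litter or pair. Replicate number 5 occurs in both groups but is not stated to mark a pair. With 2 control libraries, differences smaller than the 95% intervals given above could not be resolved.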
